A study of Mus musculus with 2 samples.

Results

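The immunoproteasome and peptide loading genes described here are Psmb8, Psmb9, Psmb10, Psme1, Psme2, Tap1, Tap2, Tapbp, Nlrc5 and Erap1. They were taken by gene symbol, 10 of the 32285 genes counted, and each symbol matched a gene in both libraries. Both libraries came from the temporomandibular joint (TMJ), the hinge of the jaw, of WT C57BL/6 mice that the labels give as 8 to 10 weeks old. In 1 library the joints had been injected with 10 µL of phosphate-buffered saline (PBS), and in the other with 10 µL of complete Freund's adjuvant (CFA), an oil emulsion with killed mycobacteria that is used to inflame a joint. By the study's methods the mice were female, the tissue was taken 3 weeks after injection and pooled from 3 mice per group, and bone, disc, muscle and ligament were digested together. Magnetic beads had depleted CD45+ blood cells, so the blood cells described below are those that remained. The question was how the level of each gene differed between PBS and CFA in each kind of cell. With 1 pooled library per condition there was no replicate check, and no test or p-value was computed.

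The proteasome is the barrel-shaped protease that degrades most cytosolic proteins. Cells exposed to interferon replace its standard catalytic subunits with the inducible subunits encoded by Psmb8, Psmb9 and Psmb10, which changes the peptides it releases, and the PA28 cap made from Psme1 and Psme2 opens the barrel. The transporter encoded by Tap1 and Tap2 then moves peptides into the endoplasmic reticulum, the aminopeptidase Erap1 trims them, and tapasin, encoded by Tapbp, holds the class I MHC molecule at the transporter until a peptide is bound. Nlrc5 is the transactivator that drives class I MHC genes and several of the genes named above.

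Single-cell RNA sequencing counted captured RNA molecules as unique molecular identifiers (UMIs). Levels are given as counts-per-million (CPM), which puts every cell class on the same UMI total. Levels of different genes from this 3′ sequencing are set side by side on this scale without a correction for gene length. Whether the genes were captured equally well was not tested. The PBS library held 7671 barcodes and the CFA library 5709, with 51146169 and 53517206 UMIs, and 10 barcode sequences occurred in both. Cells with at least 500 genes, at most 10% mitochondrial UMIs and at most 1% hemoglobin UMIs were kept, 2667 of PBS and 4014 of CFA, with a median of 7022 and 6509.5 UMIs. The libraries stood apart in red cell RNA, since the hemoglobin limit alone removed 3178 PBS but 339 CFA cells. Of 35 clusters, 30 were named by their markers into 15 classes, written below as endothelial-like and so on, with chondrocyte-, osteoblast- or osteocyte-, tenocyte- and fibroblast-like cells among them as a joint would hold, and 5 clusters with 195 PBS and 506 CFA cells stayed unnamed. The libraries were compared in the 10 classes with at least 50 cells in each, which ranged from 56 PBS and 88 CFA satellite-like cells to 754 and 1047 endothelial-like cells. Macrophage-like cells (18 PBS, 303 CFA) and osteoclast-like macrophages (1 PBS, 279 CFA) are described in the CFA library only. All intervals are 95% intervals that cover counting error only, not the spread between mice.

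Psmb9, Tap1, Psmb8 and Tap2 lie within 34335 bases of chromosome 17 in GRCm38, inside the MHC region, with Tapbp on the same chromosome (start 33915899, end 33929292, plus strand). Psmb9 (34181987 to 34187764, minus strand) and Tap1 (34187553 to 34197225, plus strand) are transcribed away from each other, and their annotated genes overlap by 212 bases at their 5′ ends. Psmb8 (34197721 to 34201454) and Tap2 (34203527 to 34216321) follow on the plus strand. Psme1 (chromosome 14, 55578123 to 55581529, plus strand) and Psme2 (55587441 to 55591113, minus strand) are neighbours, and Psmb10 (105935735 to 105938444, minus strand) and Nlrc5 (94434356 to 94527272, plus strand) lie on chromosome 8. Erap1 lies on chromosome 13 (74639568 to 74693201, plus strand). The antisense gene Gm15821 overlaps Tap2 over 3148 bases, and Psme2b is a near-identical copy of Psme2 with 105 PBS and 411 CFA UMIs of its own, so the values of Tap2 and Psme2 are less certain than the others.

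Promoter windows from 250 bases before to 50 bases after the transcription start were given by RefSeq on GRCm38.p6 for 8 of the 10 genes, and none was found for Tap2 or Nlrc5. They are shown because Psmb9 and Tap1 share a start region and because several of the genes are targets of interferon-activated factors. Capitals mark the letters of a motif searched on both strands: GAAANNGAA, of the type bound by interferon regulatory factors. The Tap1 window (chr17:34187306-34187605, plus strand) is the shared start region, as it has 275 bases in common with the Psmb9 window on the other strand. The Psmb8 window (chr17:34197945-34198244, plus strand) held no match, nor did the Tap1 window. The windows follow RefSeq starts, and those of Psmb8, Psmb9, Psme1, Tapbp and Erap1 begin after the start of the annotated gene. For these genes the bases before the annotated start were not searched. The Psme1 window (chr14:55578244-55578543, plus strand) held GAAANNGAA on the opposite strand, with its first base 10 bases after the start. The Erap1 window (chr13:74639603-74639902, plus strand) held it on the opposite strand as 2 overlapping matches, whose first bases lie 9 and 3 bases before the start.
Tap1: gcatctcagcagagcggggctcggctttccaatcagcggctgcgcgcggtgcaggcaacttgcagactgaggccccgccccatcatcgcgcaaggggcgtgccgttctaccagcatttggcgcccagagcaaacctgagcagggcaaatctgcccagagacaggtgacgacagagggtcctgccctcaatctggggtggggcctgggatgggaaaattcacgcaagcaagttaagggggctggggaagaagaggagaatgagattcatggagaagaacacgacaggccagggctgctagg
Psmb8: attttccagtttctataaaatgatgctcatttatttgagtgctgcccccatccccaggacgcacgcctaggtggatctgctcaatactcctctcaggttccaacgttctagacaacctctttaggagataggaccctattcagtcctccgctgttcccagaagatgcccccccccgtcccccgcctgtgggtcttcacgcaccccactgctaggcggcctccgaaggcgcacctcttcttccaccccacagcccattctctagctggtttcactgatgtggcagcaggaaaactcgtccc
Psme1: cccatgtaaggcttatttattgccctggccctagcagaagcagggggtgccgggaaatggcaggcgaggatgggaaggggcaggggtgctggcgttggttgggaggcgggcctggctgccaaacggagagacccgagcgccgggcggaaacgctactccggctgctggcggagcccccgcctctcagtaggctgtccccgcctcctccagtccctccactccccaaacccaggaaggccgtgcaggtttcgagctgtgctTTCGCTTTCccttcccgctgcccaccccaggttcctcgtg
Erap1: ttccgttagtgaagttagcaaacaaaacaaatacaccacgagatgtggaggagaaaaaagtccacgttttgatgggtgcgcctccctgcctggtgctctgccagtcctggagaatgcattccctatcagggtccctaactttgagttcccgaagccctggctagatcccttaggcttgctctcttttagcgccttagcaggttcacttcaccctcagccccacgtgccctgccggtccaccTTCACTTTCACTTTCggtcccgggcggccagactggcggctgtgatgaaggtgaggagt

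Of all 32851 windows of 300 bases, GAAANNGAA was found in 8.56%. Among the 9 windows of the 8 genes it was found in 2. A match is a description of letters and not a binding site, and the absence of one says only that these letters are not in the window.

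Summed over the 10 genes, each of the 10 compared classes held more of this RNA in the CFA library. In B lineage-like cells the difference was small and the interval of the ratio included 1. In endothelial-like cells the sum was 1102 CPM in PBS and 1771 CPM in CFA, a ratio of 1.61 (1.56 to 1.66). In fibroblast-like cells it was 399 and 1039 CPM, a ratio of 2.60 (2.48 to 2.73). These classes therefore began at different levels, and fibroblast-like cells of the CFA library came close to the level of endothelial-like cells of the PBS library. The ratio was highest in satellite-like cells, the muscle stem cells, at 2.84 (2.30 to 3.55), and lowest in B lineage-like cells at 1.10 (0.998 to 1.21). The other ratios were 2.52 in Schwann-like, 2.20 in chondrocyte-like, 1.88 in neutrophil-like, 1.82 in tenocyte-like, 1.69 in erythroid-like and 1.43 in mural-like cells. Erythroid-like cells had a median of 18331 UMIs in PBS and 2322.5 in CFA, and without the hemoglobin limit their ratio was 1.24. Whether the erythroid-like cells of the libraries were of the same kind was not tested. Over all kept cells together the levels were 639 and 1372 CPM, a sum in which more cells of a type and more RNA per cell cannot be told apart.

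The order of the classes also differed between the libraries. In PBS, endothelial-like cells were highest and B lineage-like cells next at 885 CPM, and their intervals did not overlap. Erythroid-like (637 CPM) and neutrophil-like cells (625 CPM) overlapped, as did fibroblast-like and tenocyte-like cells (386 CPM) and satellite-like (274 CPM) and Schwann-like cells (263 CPM). Chondrocyte-like cells were lowest in both libraries, at 137 and 301 CPM. In CFA, macrophage-like cells stood above all other classes at 2280 CPM (2234 to 2327), followed by endothelial-like cells and osteoclast-like macrophages (1734 CPM), whose intervals overlapped. Neutrophil-like (1179 CPM), erythroid-like (1078 CPM), fibroblast-like and B lineage-like cells (974 CPM) came next, each overlapping its neighbour. Endothelial-like cells, 28.3% of PBS and 26.1% of CFA cells, held 37.3% of all UMIs of these genes in PBS and 20.2% in CFA. Osteoclast-like macrophages, 6.95% of CFA cells with a median of 31235 UMIs, held 26.8% in CFA, and macrophage-like cells 15.5%.

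**Figure D1:**
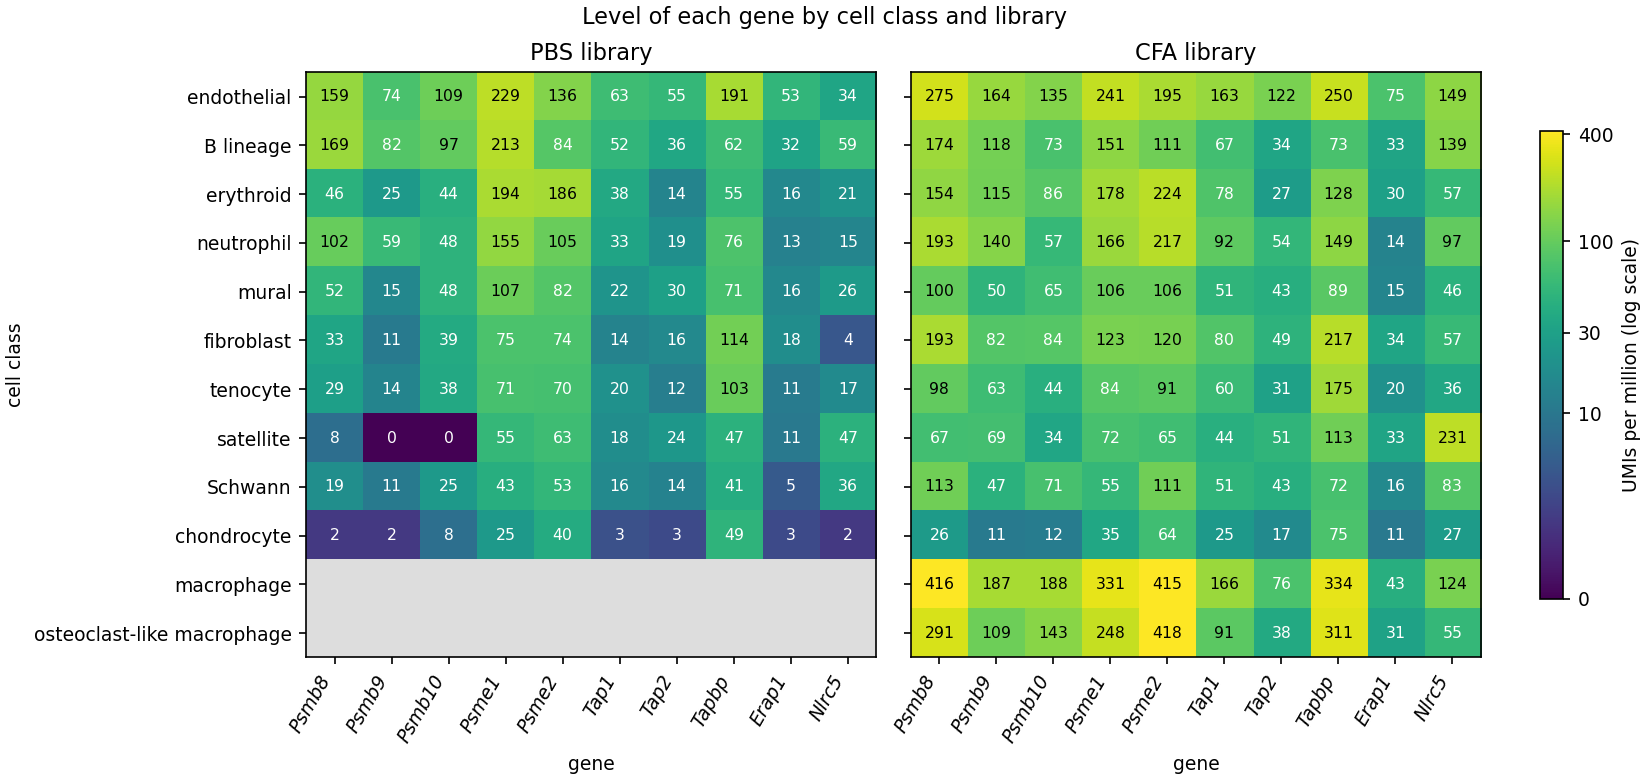
Level of each of the 10 genes (columns) in each cell class (rows, named by marker genes) of the PBS library (left) and the CFA library (right), as CPM on a logarithmic colour scale, 1 library per condition. Psmb8 is an example, with 33.5 in PBS and 193 in CFA fibroblast-like cells and 416 in CFA macrophage-like cells, and grey marks classes with fewer than 50 PBS cells.

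A gene was counted as higher when its CFA level was at least 2-fold its PBS level and as lower when it was at most 0.5-fold, among genes with at least 20 UMIs over both libraries in a class. All 10 genes passed this minimum in all 10 classes. Of the 100 combinations of gene and class, 50 were higher and 0 were lower. In endothelial-like cells 4 of the 10 genes were higher, where 5.15% of all 12719 genes were. In fibroblast-like cells the count was 6 against 8.76% of 13216 genes, in Schwann-like cells 8 against 7.74%, and in satellite-like cells 8 against 8.45%. Chondrocyte-like cells had 6 (4.56%), tenocyte-like cells 5 (4.14%), neutrophil-like cells 5 (7.89%), erythroid-like cells 5 (13.5%), mural-like cells 2 (3.78%) and B lineage-like cells 1 (3.33%). The genes at most 0.5-fold, 0 of the 10 in each class, were 5.72% of all genes in endothelial-like, 5.06% in fibroblast-like, 3.16% in Schwann-like, 6.88% in satellite-like, 7.6% in chondrocyte-like, 5.98% in tenocyte-like, 15.1% in neutrophil-like, 8.56% in erythroid-like, 5.1% in mural-like and 5.45% in B lineage-like cells. The median ratio of the 10 genes was 1.58 in endothelial-like and 2.54 in fibroblast-like cells, beside 1.003 and 1.01 over all genes. The median of all genes was itself shifted in erythroid-like cells by 0.15 and in neutrophil-like cells by -0.16 on the log2 scale, and in both classes scaling by that median left the direction of the sum as it was.

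The genes differed in how widely they were higher. Nlrc5, Psmb9 and Tap1 were each at least 2-fold higher in 9 of the 10 classes, with median ratios of 3.54, 4.34 and 2.71. Tap2 was so in 7 classes and Psmb8 in 6, with medians of 2.34 and 3.34. Psmb10 and Erap1 were higher in 3 classes each, and Psme2 and Tapbp in 2 each. Psme1 was higher in none, with ratios from 0.709 to 1.64. The subunits of the PA28 cap, tapasin and Erap1 were thus less often past 2-fold than the Tap genes, Psmb9 and Nlrc5, a difference that was not tested.

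**Figure D2:**
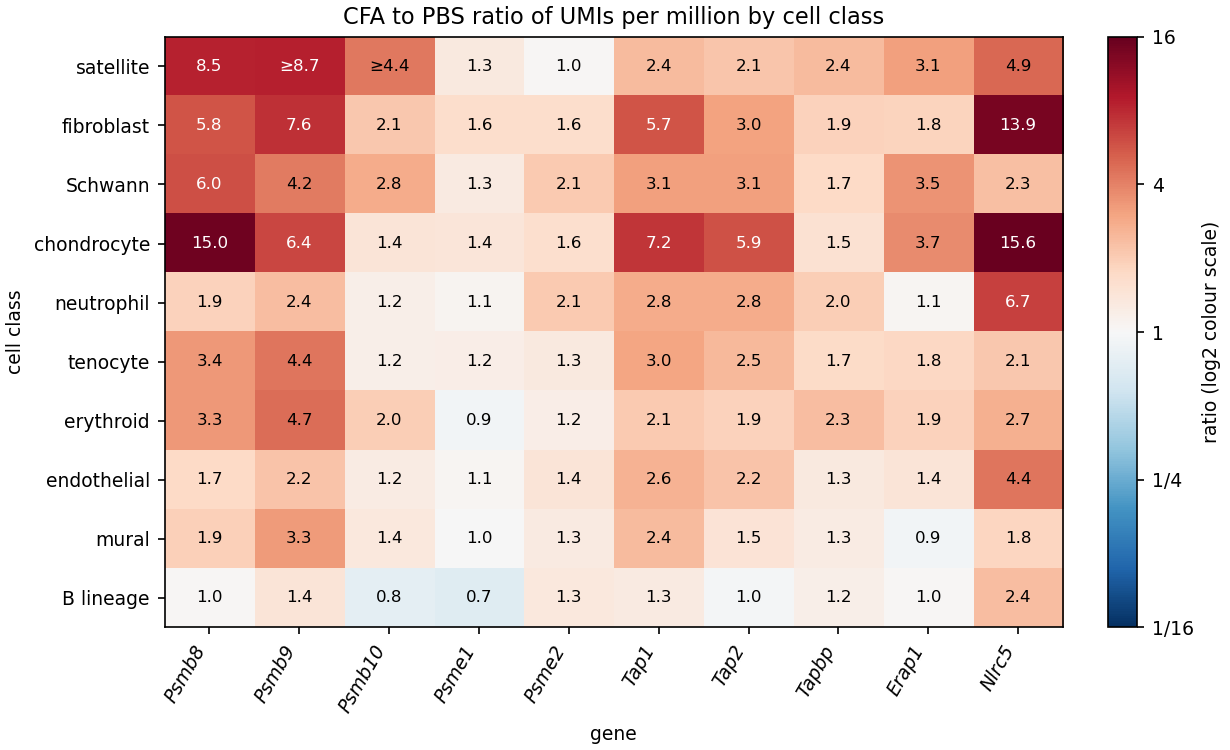
CFA to PBS ratio of the CPM of each gene (columns) in each cell class (rows, ordered by the ratio of the sum), with a log2 colour scale where red is higher in CFA; a sign marks ratios against the floor of 3 UMIs in satellite-like cells, where PBS held 0. Ratios run from 0.709 for Psme1 in B lineage-like cells to 15.6 for Nlrc5 in chondrocyte-like cells.

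Psmb8, Psmb9 and Psmb10 encode the inducible catalytic subunits beta5i, beta1i and beta2i. In endothelial-like cells Psmb8 stood at 159 CPM in PBS and 275 CPM in CFA (ratio 1.73, 1.60 to 1.87), Psmb9 at 73.8 and 164 CPM (2.23, 1.99 to 2.49), and Psmb10 at 109 and 135 CPM (1.24, 1.12 to 1.38). Psmb9 was the only one of these 3 genes past 2-fold there, and its interval reached just below 2. In fibroblast-like cells Psmb8 stood at 33.5 and 193 CPM (5.76, 4.91 to 6.79), Psmb9 at 10.8 and 81.9 CPM (7.56, 5.74 to 10.1), and Psmb10 at 39.2 and 83.5 CPM (2.13, 1.80 to 2.52). Fibroblast-like cells thus had less of all 3 than endothelial-like cells in either library, with a larger ratio between the libraries. In Schwann-like cells, the glia of nerves, Psmb8 was 18.8 and 113 CPM (6.02, 4.07 to 9.22). In B lineage-like cells, which had the highest Psmb8 level of PBS with endothelial-like cells, it was 169 and 174 CPM (1.03, 0.814 to 1.29).

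Some of the largest ratios rested on very few PBS molecules. Chondrocyte-like cells held 3 Psmb8 UMIs in PBS and 49 in CFA, a ratio of 14.98 (4.83 to 75.1), and the 49 lay in 17 of 85 cells. Satellite-like cells held 3 and 41 Psmb8 UMIs (8.49, 2.71 to 42.9). They held 0 Psmb9 UMIs in PBS, where 3 would be 7.89 CPM, and 42 in CFA (68.7 CPM), so against that floor of 3 UMIs Psmb9 was at least 8.70-fold higher, and the counting interval of its ratio began at 6.77. Psmb10 was likewise at 0 and 21 UMIs there, at least 4.35-fold higher against the floor, with an interval from 3.24.

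Each inducible subunit replaces a standard one, so its share of the UMIs of the pair was computed for Psmb8 with Psmb5, Psmb9 with Psmb6 and Psmb10 with Psmb7. In endothelial-like cells Psmb8 made up 60.7% (58.3 to 63.2) of its pair in PBS and 76.8% (75.1 to 78.5) in CFA. In fibroblast-like cells its share was 24.8% (21.7 to 28.1) in PBS and 65.3% (63.0 to 67.6) in CFA. The intervals did not overlap in either class. By the point values, the majority of the pair's UMIs passed from the standard to the inducible subunit in fibroblast-like and neutrophil-like cells. The neutrophil-like share was 39.6% and 63.6%. In CFA the share was 49.4% (44.5 to 54.3) in Schwann-like and 46.1% (35.4 to 57.0) in satellite-like cells. The counting intervals do not settle which subunit held the majority in these 2 classes. Psmb9 had the lower share in both libraries, 38.3% and 65.5% in endothelial-like and 7.59% and 46.5% in fibroblast-like cells. Psmb10 was 69.2% and 71.5% of its pair in endothelial-like cells, with overlapping intervals, and 48.6% and 64.9% in fibroblast-like cells. Over the 10 classes, the CFA share of Psmb8 was the higher one in 10, with intervals apart in 9, that of Psmb9 in 10 with intervals apart in 10, and that of Psmb10 in 9 with intervals apart in 3. Chondrocyte-like cells kept the lowest Psmb8 share, 0.958% in PBS and 16.7% in CFA. UMI shares compare RNA and do not measure assembled proteasomes.

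**Figure D3:**
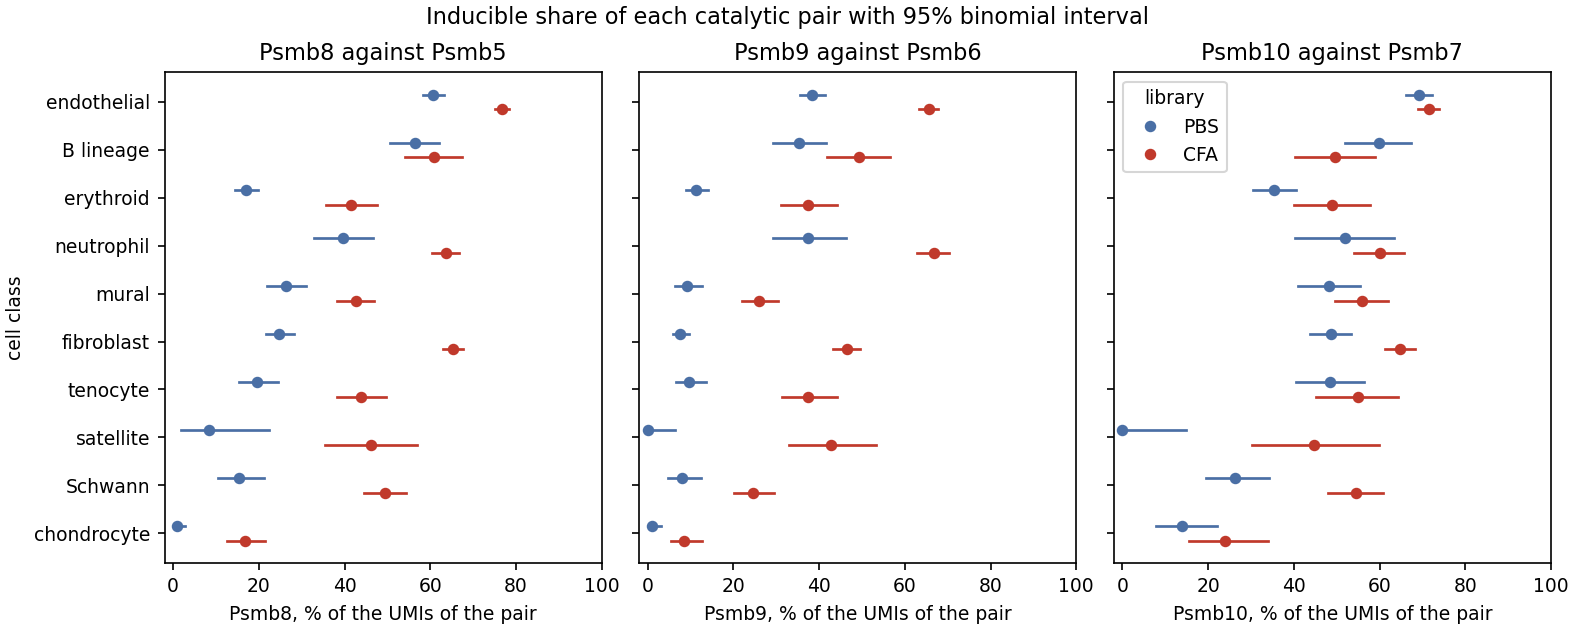
Share of the inducible subunit among the UMIs of its pair (horizontal axis, %) by cell class (vertical axis) in the PBS (blue) and CFA (red) libraries, with bars for exact Clopper-Pearson 95% intervals and 1 library per condition. Psmb8 lies at 24.8% and 65.3% in fibroblast-like cells, while Psmb10 in endothelial-like cells lies at 69.2% and 71.5%.

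The standard partners differed less between the libraries. Psmb5, Psmb6 and Psmb7 gave 30 combinations with the 10 classes, of which 0 were higher and 0 lower, with ratios from 0.621 to 1.15. In endothelial-like cells Psmb5 was 103 and 83.0 CPM (0.806, 0.718 to 0.905) and Psmb6 was 119 and 86.4 CPM (0.728, 0.652 to 0.813). In fibroblast-like cells Psmb5 was 101 and 102 CPM (1.01, 0.897 to 1.14). Of the 11 structural subunits of the 20S barrel, 110 combinations gave 0 higher and 1 lower, and of the 18 subunits of the 19S cap, 180 combinations gave 0 in either direction. The other regulators Psme3, Psme4, Psmf1 and the assembly factor Pomp gave 0 higher and 1 lower of 38.

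Psme1 and Psme2 encode the alpha and beta subunits of PA28. Psme1 was the most abundant of the 10 genes in endothelial-like cells of PBS, and stood at 229 CPM there and 241 CPM in CFA (1.06, 0.983 to 1.14). In fibroblast-like cells it was 75.3 and 123 CPM (1.64, 1.45 to 1.86), its highest ratio of the 10 classes. In B lineage-like cells it was 213 and 151 CPM (0.709, 0.562 to 0.890), the only ratio in the 10 classes whose interval lay below 1. Psme2 was 136 and 195 CPM in endothelial-like cells (1.44, 1.32 to 1.57) and 74.0 and 120 CPM in fibroblast-like cells (1.63, 1.44 to 1.85). It passed 2-fold in Schwann-like cells (53.3 and 111 CPM, 2.09, 1.61 to 2.73) and in neutrophil-like cells (105 and 217 CPM, 2.06, 1.64 to 2.60). Its highest level was in the macrophages of CFA, 418 CPM in osteoclast-like and 415 CPM in macrophage-like cells, whose intervals overlapped.

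Tap1 and Tap2 encode the 2 chains of the peptide transporter. In endothelial-like cells Tap1 was 62.6 CPM in PBS and 163 CPM in CFA (2.60, 2.31 to 2.94), and Tap2 was 55.1 and 122 CPM (2.21, 1.95 to 2.52). In fibroblast-like cells Tap1 was 14.02 and 79.6 CPM (5.68, 4.44 to 7.35) and Tap2 was 16.3 and 49.1 CPM (3.02, 2.37 to 3.89). Both transporter genes were thus past 2-fold in both classes. In chondrocyte-like cells the counts were 6 and 47 UMIs of Tap1 (7.18, 3.07 to 20.6) and 5 and 32 of Tap2 (5.87, 2.27 to 19.3). Tap2 was highest in endothelial-like cells in both libraries, and in CFA its level there was above that of macrophage-like cells (75.6 CPM) with intervals apart.

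Tapbp, which encodes tapasin, was 191 and 250 CPM in endothelial-like cells (1.31, 1.21 to 1.41) and 114 and 217 CPM in fibroblast-like cells (1.91, 1.73 to 2.11). It passed 2-fold in satellite-like (47.4 and 113 CPM, 2.38, 1.402 to 4.25) and erythroid-like cells (54.8 and 128 CPM, 2.34, 1.80 to 3.04). It was the highest of the 10 genes in the fibroblast-like, tenocyte-like and chondrocyte-like cells of both libraries. Erap1, the trimming peptidase, was highest in endothelial-like cells in both libraries, at 52.5 and 75.0 CPM (1.43, 1.24 to 1.65). In fibroblast-like cells it was 18.1 and 33.5 CPM (1.85, 1.44 to 2.39). The 3 classes with Erap1 past 2-fold held few UMIs of it, 7 and 29 in Schwann-like, 5 and 20 in chondrocyte-like and 4 and 20 in satellite-like cells.

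Nlrc5, the class I transactivator, had the highest ratio of the 10 genes in both large classes. It was 34.0 CPM in PBS and 149 CPM in CFA in endothelial-like cells (4.39, 3.77 to 5.14). In fibroblast-like cells it was 4.11 and 57.1 CPM, from 22 and 322 UMIs (13.9, 9.01 to 22.5). In neutrophil-like cells it was 14.5 and 97.2 CPM (6.70, 3.78 to 13.1), and it was also the one gene past 2-fold in B lineage-like cells, at 59.0 and 139 CPM (2.36, 1.71 to 3.29). Its order of classes differed from that of the other genes, since satellite-like cells held the highest Nlrc5 level of CFA, 231 CPM against 47.4 CPM in PBS (4.87, 2.97 to 8.45), with no overlap with the endothelial-like level next to it. Chondrocyte-like cells held 3 and 51 UMIs (15.6, 5.04 to 78.1).

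**Figure D4:**
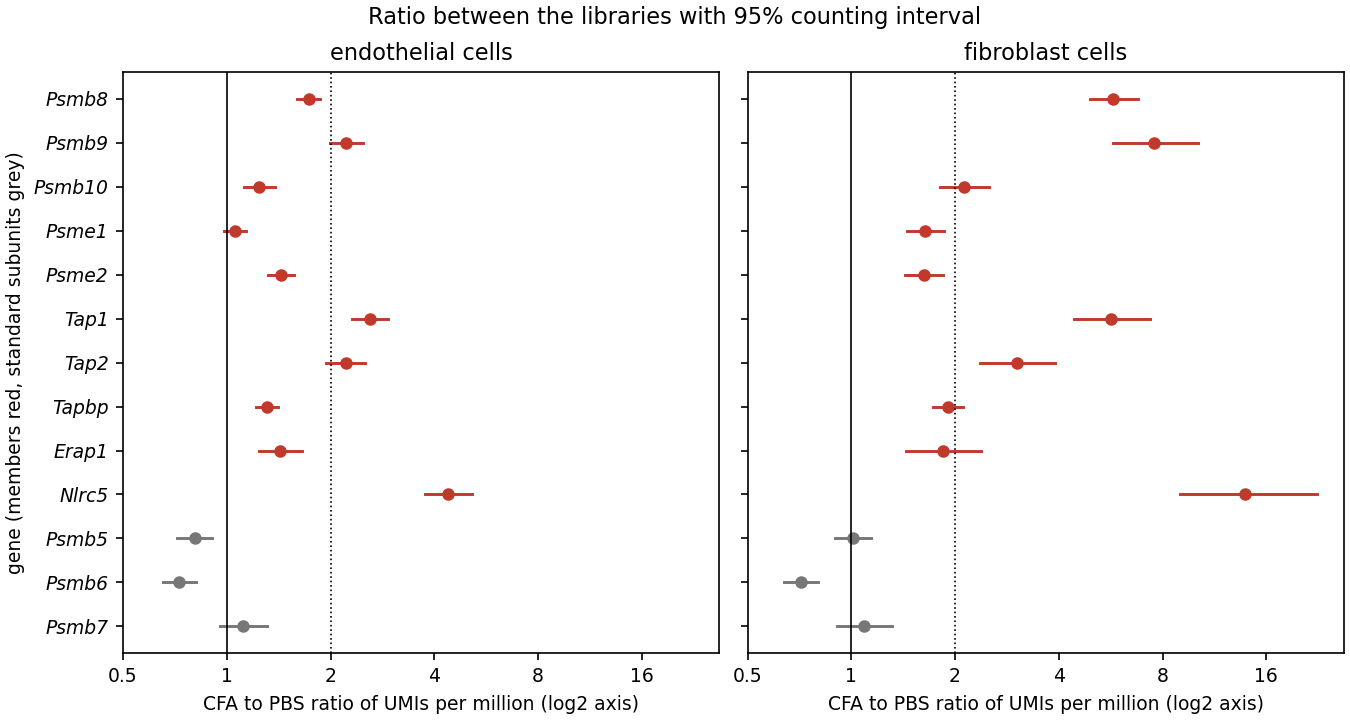
CFA to PBS ratio of the CPM (horizontal log2 axis) of the 10 genes (red) and the 3 standard catalytic subunits (grey) in endothelial-like (left) and fibroblast-like cells (right), with bars for exact 95% counting intervals, a solid line at 1 and a dotted line at 2. Nlrc5 lies at 4.39 and 13.9, and the standard subunits lie between 0.715 and 1.11.

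The share of cells with a UMI was compared after each cell had been thinned to 1000 UMIs, which left out 13 of the 754 endothelial-like cells in PBS and 1 of the 1047 in CFA, and 4 of 479 and 10 of 379 fibroblast-like cells. At this depth a UMI of any of the 10 genes was found in 59.0% of the endothelial-like cells in PBS and in 75.7% in CFA, and 6.07% and 17.2% held UMIs of at least 3 of them. In fibroblast-like cells the shares were 30.5% and 50.7% for any gene and 0.842% and 5.96% for at least 3. More cells of both classes thus held these genes in CFA, and more held several at once. For Psmb8 the thinned shares were 12.6% and 19.8% in endothelial-like and 4.21% and 12.5% in fibroblast-like cells, and as counted 50.5% and 59.9%, and 22.8% and 56.2%. For Nlrc5 the thinned shares were 3.51% and 13.8%, and 1.05% and 5.15%. As a low comparison, 0 of 85 thinned PBS chondrocyte-like cells held Psmb8, and as counted 2.33% did, at a median of 15967 UMIs against 5408 in PBS endothelial-like and 11144 in PBS fibroblast-like cells.

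Within the classes, the clusters were not alike. Capillary endothelial-like cells had summed levels of 1126 and 2099 CPM (1.86, 1.75 to 1.98) and venular endothelial-like cells 1081 and 1929 CPM (1.79, 1.69 to 1.89). Arterial endothelial-like cells were highest in PBS, at 1543 CPM, and had the smallest ratio, with 1796 CPM in CFA (1.16, 1.09 to 1.24). In them 2 of the 10 genes, Nlrc5 (3.06, 2.11 to 4.51) and Tap1 (2.08, 1.56 to 2.81), were past 2-fold, where 6.07% of genes were higher, and Psmb8 was 250 and 290 CPM (1.16, 0.985 to 1.37). Capillary endothelial-like cells had 5 (5.62%), the fifth being Psmb8 at 150 and 351 CPM (2.34, 1.99 to 2.76), and venular ones 4 (5.31%). The 2 endothelial-like clusters without a subtype name had ratios of 1.58 and 1.45, with 3 (5.15%) and 4 (6.97%) of the genes past 2-fold.

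Among fibroblast-like cells, the cluster with Pi16, Dpp4 and Cd55 had the largest ratio. Its sum was 421 CPM in PBS and 1289 CPM in CFA (3.06, 2.83 to 3.31), and 7 of the 10 genes were higher, where 8.11% of genes were. Nlrc5 had 6 UMIs in PBS and 229 in CFA (21.0, 9.50 to 57.8), Tap1 15 and 326 (11.96, 7.15 to 21.6) and Psmb9 16 and 339 (11.7, 7.08 to 20.6). Psmb8 was 31.7 and 252 CPM (7.97, 6.09 to 10.6), and its share of the pair with Psmb5 was 26.8% and 71.8%. Sublining fibroblast-like cells began at the same summed level, 421 CPM, and stood at 706 CPM in CFA (1.68, 1.51 to 1.86), with 4 genes higher (12.1%). The fibroblast-like cluster without a subtype name had 365 and 674 CPM (1.85, 1.67 to 2.05), with 5 higher (4.6%). S100a8, a neutrophil and monocyte gene, was among the 10 leading genes of the Pi16 cluster, and the 8 neutrophil markers summed there to 1245 CPM in PBS and 128 CPM in CFA. At the ratio of marker to member RNA in neutrophil-like cells, this RNA would bring 3.82 and 0.802 CPM of the 10 genes. The 6 monocyte markers summed to 49.98 and 692 CPM in that cluster, and their part in its ratios was not tested.

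**Figure D5:**
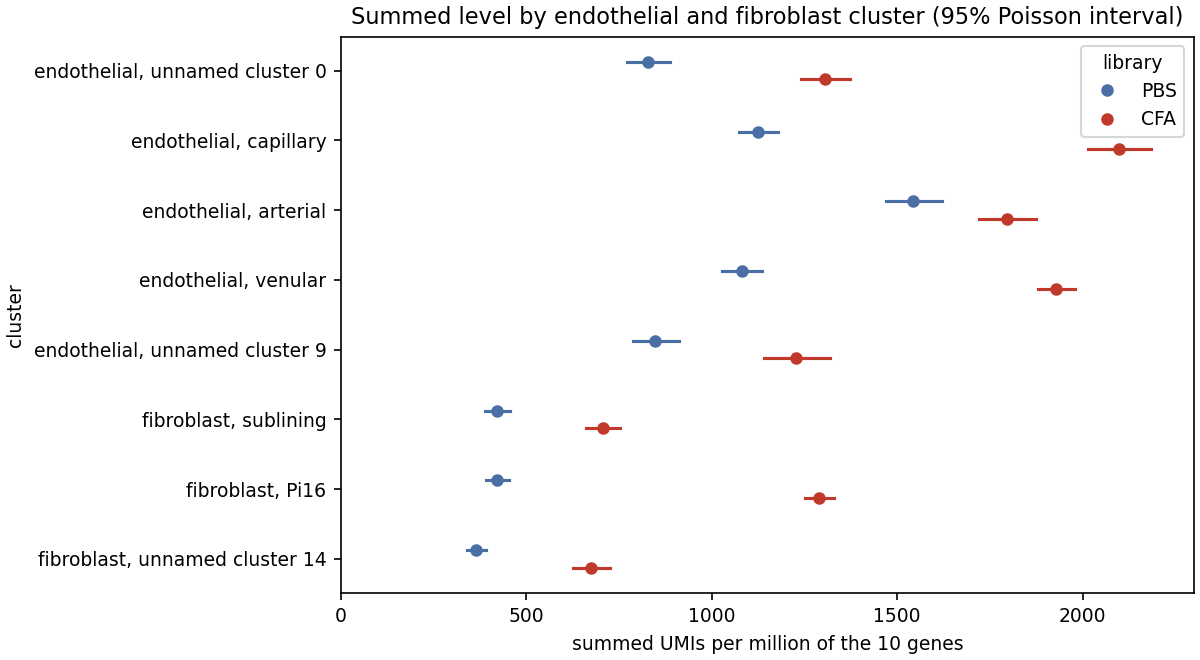
Summed CPM of the 10 genes (horizontal axis) in each endothelial-like and fibroblast-like cluster (vertical axis) of the PBS (blue) and CFA (red) libraries, with bars for exact Poisson 95% intervals and 1 library per condition. The Pi16 cluster lies at 421 and 1289 and the arterial cluster at 1543 and 1796.

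Neutrophil-like cells were split differently over 3 clusters in the libraries. The granule-stage cluster held 46 of 73 PBS and 146 of 350 CFA cells and had summed levels of 545 and 884 CPM, and the mature cluster held 19 and 183 cells with 900.2 and 2228 CPM. The other cluster held 8 and 21 cells. Nlrc5 was 34.8 CPM in the mature cluster of PBS, from 6 UMIs, and 292 CPM in that of CFA. The ratio of 1.88 for the class therefore joins different shares of the clusters with a difference inside the granule-stage and mature clusters.

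Blood cell RNA was present in the other classes and differed between the libraries. The 7 macrophage markers summed to 17.5 and 37.2 CPM in endothelial-like cells and to 4.30 and 46.3 CPM in fibroblast-like cells, with Adgre1 at 0 in PBS in both. The 8 neutrophil markers summed to 115 and 263 CPM, and to 472 and 136 CPM, with all of them detected in fibroblast-like cells, and the 6 monocyte markers in fibroblast-like cells to 28.2 and 476 CPM. By the ratio of marker to member RNA in neutrophil-like and macrophage-like cells, the neutrophil and macrophage RNA would bring 2.12 and 14.4 CPM of the 10 genes to endothelial-like cells and 1.88 and 16.8 CPM to fibroblast-like cells. After subtraction the summed ratios were 1.60 and 2.57 and the counts of genes past 2-fold were 4 and 6, as before. In erythroid-like cells this RNA would bring 1.39 and 129 CPM, and subtraction took the ratio from 1.69 to 1.49. In mural-like cells the neutrophil markers summed to 87.6 and 2278 CPM, and neutrophil and macrophage RNA would bring 0.889 and 28.7 CPM. The 8 markers of osteoclast-like macrophages summed to 10.54 and 50.6 CPM in endothelial-like, 319 and 516 CPM in fibroblast-like and 63.2 and 534 CPM in erythroid-like cells. Osteoclast-like and monocyte RNA were not part of the subtraction, and their part in the ratios was not tested.

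The ratios of chondrocyte-like, erythroid-like, neutrophil-like, tenocyte-like and mural-like cells depended on how cells were grouped. When counts were merged without integration, the genes past 2-fold were 1 instead of 6 in chondrocyte-like, 3 instead of 5 in erythroid-like and 2 instead of 5 in neutrophil-like cells. In tenocyte-like cells 8 were past 2-fold in place of 5, with a summed ratio of 3.99, and when each cell was classed by its own markers 1 was, which was not among the 5. In that setting 3 of the 10 genes had 20 UMIs in tenocyte-like cells, and the summed ratio was 2.57 against 1.82. In mural-like cells the same setting gave 7 genes past 2-fold in place of 2 and a summed ratio of 2.57 against 1.43. Without the mature neutrophil-like cluster, mostly of CFA, 2 neutrophil-like genes were past 2-fold, with a summed ratio of 1.59. A chondrocyte-like cluster of 28 PBS and 0 CFA cells was present in PBS alone, and without clusters of this kind the chondrocyte-like count was 7. Barcodes with fewer than 500 genes, which can hold free RNA, had 1.81 and 17.7 CPM of Psmb8. Chondrocyte-like cells had 1.72 and 25.7 CPM, and in CFA the barcodes lay below the counting interval of these cells. For Nlrc5 the barcodes had 1.39 and 12.5 CPM, beside 1.72 and 26.8 CPM in chondrocyte-like cells. What these barcodes held, and the part of free RNA in the chondrocyte-like ratios, was not tested.

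The class I chains, which these genes load, were higher in most classes. B2m, H2-K1 and H2-D1 were higher in 25 of 30 combinations, with ratios from 1.09 to 10.6. In endothelial-like cells B2m was 2.15-fold, H2-K1 1.93-fold and H2-D1 1.79-fold the PBS level, and in fibroblast-like cells 6.43-fold, 10.6-fold and 9.45-fold. Near-identical H2 genes can share reads, so single H2 values are uncertain. Of the chaperones Calr, Canx, Pdia3 and the tapasin-related Tapbpl, 3 of 35 combinations were higher and 0 lower, with Tapbpl at 28 and 67 UMIs in fibroblast-like cells (2.27, 1.44 to 3.67). Of the cytosolic and vesicular peptidases Lap3, Npepps, Lnpep, Blmh and Thop1, 1 of 47 was higher and 2 lower. The higher one was Lap3, a leucine aminopeptidase, in endothelial-like cells, at 26.2 and 78.9 CPM (3.01, 2.52 to 3.63).

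Of the genes that carry the interferon signal, 16 of 70 combinations were higher and 1 lower. Irf1, which acts on the promoters of several of these genes, had ratios below 1 in endothelial-like (0.742, 0.711 to 0.775) and fibroblast-like cells (0.861, 0.802 to 0.923). The kinase Jak2 was 33.6 and 70.2 CPM in fibroblast-like cells (2.09, 1.75 to 2.50). Ifng, the gene of interferon gamma, had 2 UMIs in all kept PBS cells and 258 in all kept CFA cells. Of these, 2 and 198 lay in an unnamed cluster of 44 PBS and 87 CFA cells whose leading genes included Siglech, Stat4 and Flt3, 20 in neutrophil-like, 19 in macrophage-like and 17 in osteoclast-like cells of CFA, and 0 in endothelial-like and fibroblast-like cells of either library.

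The pattern of the 10 genes over 20 points, the 10 classes in both libraries, was compared with that of single genes. These were the 7635 genes with a mean of at least 20 CPM, a number from which the 10 had not been removed. The measure was Pearson's r of log2(CPM + 10) with the mean of the 10 genes, a description without a test, as the points of a library share its depth and its cells. The 10 most similar genes outside the set were H2-K1 (r = 0.910), Ifi47 (0.906), Trim12c (0.905), Dtx3l (0.888), Susd6 (0.888), Usp25 (0.877), H2-T23 (0.866), B2m (0.865), H2-Q7 (0.864) and H2-Q6 (0.851). Of the set itself, Tap1 (0.963), Psmb8 (0.960) and Psmb9 (0.941) lay closest to the mean of the other 9, and Tapbp (0.681) and Nlrc5 (0.629) farthest from it.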

How the data were processed

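RNA of single cells was sequenced in 2 libraries, PBS and CFA, grouped by the treatment label. The authors deposited raw UMI counts per gene and barcode, made with Cell Ranger 7.0.1 on mm10 (GRCm38) per the labels, and the annotation release is not given in the sources used here. The labels and the methods differ on the library kit and the digestion enzymes.

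Seurat 5.3.0 (sctransform 0.4.2, R 4.3.3) normalized each library with SCTransform, joined both with integration anchors on 3000 genes, without the 10 genes and their pathway lists, and formed clusters (resolution 1.5) from 200 principal components. A cluster was named from at least 3 markers, each with a UMI in 25% of cells and 2-fold above other cells of its library. Python 3.11.15 with numpy 2.4.6, scipy 1.17.1, pandas 2.3.3, matplotlib 3.10.9 and scanpy 1.11.5 computed the rest. Doublets were kept, and Scrublet scores served as an alternative. UMIs were summed per class and library, with exact Poisson intervals for sums, exact conditional binomial intervals for ratios and Clopper-Pearson intervals for shares; a count of 0 was set to 3. For the thinned shares of cells with a UMI, each cell was thinned to 1000 UMIs with seed 1. Levels and ratios used the counts without thinning. The genes named are the 10, the pathway lists, and the 10 genes most alike with a mean of at least 20 CPM. These members and lists were chosen with earlier results of these data known. On simulated counts for endothelial-like cells (12680 genes, 194 changed 4-fold), 99.48% of the changed genes and 1.097% of the others passed 2-fold, and 95.47% of intervals covered the true ratio. The counts were drawn from the Poisson model that the intervals assume. The simulation therefore checks the calculation only, and does not cover spread between cells or mice or classes with fewer UMIs. Gene positions came from GENCODE (GRCm38) and promoter windows from RefSeq (GRCm38.p6). The motif was chosen after the data were seen, and a longer form of it and other motifs, also searched, are not reported here.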

Additional observations from a re-analysis of the deposited data

How the results depend on the processing

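No paired analysis was possible because each condition has 1 library, and for the same reason no library could be left out. The alternatives were set in advance, except the addition of an endothelial cluster with few UMIs and the subtraction of blood cell RNA, which were chosen after seeing the data. The number of genes past 2-fold in endothelial-like cells was 4 under all of them and 5 at a limit of 1.5-fold, and in fibroblast-like cells it ran from 5 to 8, with 10 at a limit of 1.5-fold. The summed ratio in endothelial-like cells was 1.54 with clusters weighted equally and otherwise 1.58 to 1.63. In fibroblast-like cells it was 2.77 without the hemoglobin limit, 2.18 as a mean of each cell's CPM and 2.21 with clusters weighted equally. The causes of these differences were not tested. No ratio past 2-fold turned its direction. Of the 50 ratios past 2-fold, 46 stayed past it with at least 20 UMIs without the highest Scrublet scores, 47 without clusters found in 1 library, 37 with each cell classed by its own markers and 38 when counts were merged without integration. Without the minimum of 20 UMIs these counts were 48, 47, 45 and 41. Depth limits the classes with few cells, where ratios rest on 0 to 7 PBS UMIs of a gene.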

Other observations

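Classes with fewer than 50 cells in a library, and the unnamed clusters, were left out of the comparisons above, and their summed levels of the 10 genes are given here as values. Macrophage-like cells stood at 1178 CPM (1031 to 1340) in the 18 PBS cells, beside 2280 CPM in CFA. Osteoblast- or osteocyte-like cells stood at 489 CPM (431 to 553) in 35 PBS cells and 412 CPM (360 to 469) in 28 CFA cells, with overlapping intervals. The 1 osteoclast-like cell of PBS stood at 2103 CPM (1202 to 3415), which overlaps the level of that class in CFA. Lymphatic-like cells stood at 996 CPM (18 cells) and 1160 CPM (12 cells), and basophil-like cells at 614 CPM (7 cells) and 1102 CPM (12 cells). The unnamed cluster led by Prg4, the lubricin gene of the joint lining, held 31 PBS and 6 CFA cells with 304 and 1804 CPM, and the 6 cells are too few to compare. The unnamed cluster with most Ifng UMIs stood at 1149 and 1358 CPM, and the cluster led by Prtn3, Ctsg and Mpo, genes of early granulocytes and monocytes, at 1475 and 1660 CPM. The endothelial cluster with few UMIs, 46 PBS and 196 CFA cells, stood at 1043 and 1853 CPM.

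Among neutrophil-like cells the mature cluster of CFA held 292 CPM of Nlrc5, 311 CPM of Psmb8 and 218 CPM of Tap1, and the granule-stage cluster of CFA held 41.2, 161 and 57.0 CPM. The share of Psmb8 in its pair with Psmb5 was 81.3% in the former and 56.8% in the latter.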
